A study of Mus musculus with 10 samples.

Results

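Ephrins, Eph receptors, Slits and Robos are 4 protein families by which growing axons, dendrites and glial processes are repelled or held by their neighbours. All 29 mouse genes whose symbols in the GENCODE M21 annotation belong to these families were taken here, with the *Efna*, *Efnb*, *Epha* and *Ephb* series, *Slit1* to *Slit3* and *Robo1* to *Robo4*. Each of the 29 was found among the 53447 genes listed for every library. They comprise 5 ephrin-A, 3 ephrin-B, 9 EphA, 5 EphB, 3 Slit and 4 Robo genes. The levels come from RNA-seq of the whole cerebellum of 5 *Dscam* del17/del17 mice (labelled DscamKO) and 5 WT mice (labelled Control), all at P21 and labelled as BALB/c, with 1 library per mouse. The del17 allele is a spontaneous loss-of-function deletion in *Dscam* that the homozygous mutants carry in every cell, and the line was crossed to BALB/cCrSlc mice. Controls were littermates, both sexes were used, and the labels give no sex.

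Eph receptors are receptor tyrosine kinases that bind ephrins on the surface of a touching cell, and signals run into both cells. Ephrin-A proteins are anchored in the membrane by a lipid, whereas ephrin-B proteins span it. Slits are secreted proteins that repel axons and dendrites through Robo receptors. In mouse Purkinje cells, *Slit2* and *Robo2* are known to keep dendrites of the same cell apart, and DSCAM has a related role in self-avoidance of neurites in the mouse retina. In the paper that reported these libraries, RNA-seq served to compare transcripts of the glutamate transporter GLAST and of genes for climbing fibre synapses between the genotypes. The guidance families described here were measured in the same libraries.

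Levels are TPM, transcript abundances scaled to a fixed total per library and divided by transcript length, so that genes can be compared with each other. The listed TPM do not reach an equal sum in every library. They summed to between 775148 and 805869 in the mutant libraries and to between 684771 and 838532 in WT. Values are given as listed, and rescaled values are among the alternatives below. Mitochondrially encoded mRNAs held 34717 to 44973 TPM in the mutant libraries. They held 23124 and 15206 TPM in WT replicates 3 and 5 and 32199 to 44670 TPM in the remaining WT mice. Fewer genes reached 0.5 TPM in WT replicate 5 (15623) than in the other libraries (17101 to 17763). Markers of the tissue were present in all 10 libraries, with 238 to 634 TPM for *Gabra6* of granule cells and 1380 to 2605 TPM for *Pcp2* of Purkinje cells. *Dscam* itself had 3.05 to 5.42 TPM in the mutant and 6.29 to 9.05 TPM in WT, so that its values did not overlap.

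A gene was compared between the genotypes if it had at least 0.5 TPM in at least 5 of the 10 libraries, which 17168 genes did. Of the 29 members, 26 passed and 3 did not, namely *Epha1*, *Epha6* and *Robo3*. None of the 26 was called different by limma at an adjusted p under 0.05, and 0% of all genes tested were. *Dscam*, at an adjusted p of 0.779 from limma, was not called either, though its values did not overlap. At an unadjusted p under 0.05 the count was 0 of 26, beside 5.55% of all genes tested (953 genes, of which 394, or 2.29%, were higher and 559, or 3.26%, lower in the mutant). The exact permutation test was two-sided, over each way of dealing the 10 mice into 5 and 5. It gave an unadjusted p under 0.05 for 1 of 26 members, *Slit2*, and for 1034 of all 17168 genes tested, but for no gene after adjustment. The 5 mutant and 5 WT values overlapped in all 26 members, while the groups did not overlap in 1.22% of all genes tested (0.419% higher and 0.798% lower in the mutant). Log2 fold changes (mutant minus WT, after adding 0.1 TPM, which draws the values of low genes toward 0) ran from -0.50 to 1.52. They were above 0 in 17 members and below 0 in 9, where 56% of all genes tested were above 0. Their median was 0.14, against 0.048 for all genes tested. Without WT replicate 5 these medians were 0.053 and -0.037. The members' median was below 0 in 3 other settings. It was -0.042 (0.031 for all genes) with a filter at a mean of 5 TPM, which only 12 members passed. It was -0.028 (-0.094 for all genes) without WT replicates 3 and 5, and -0.025 (-0.10 for all genes) after adjusting for mitochondrial mRNA.

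**Figure D1:**
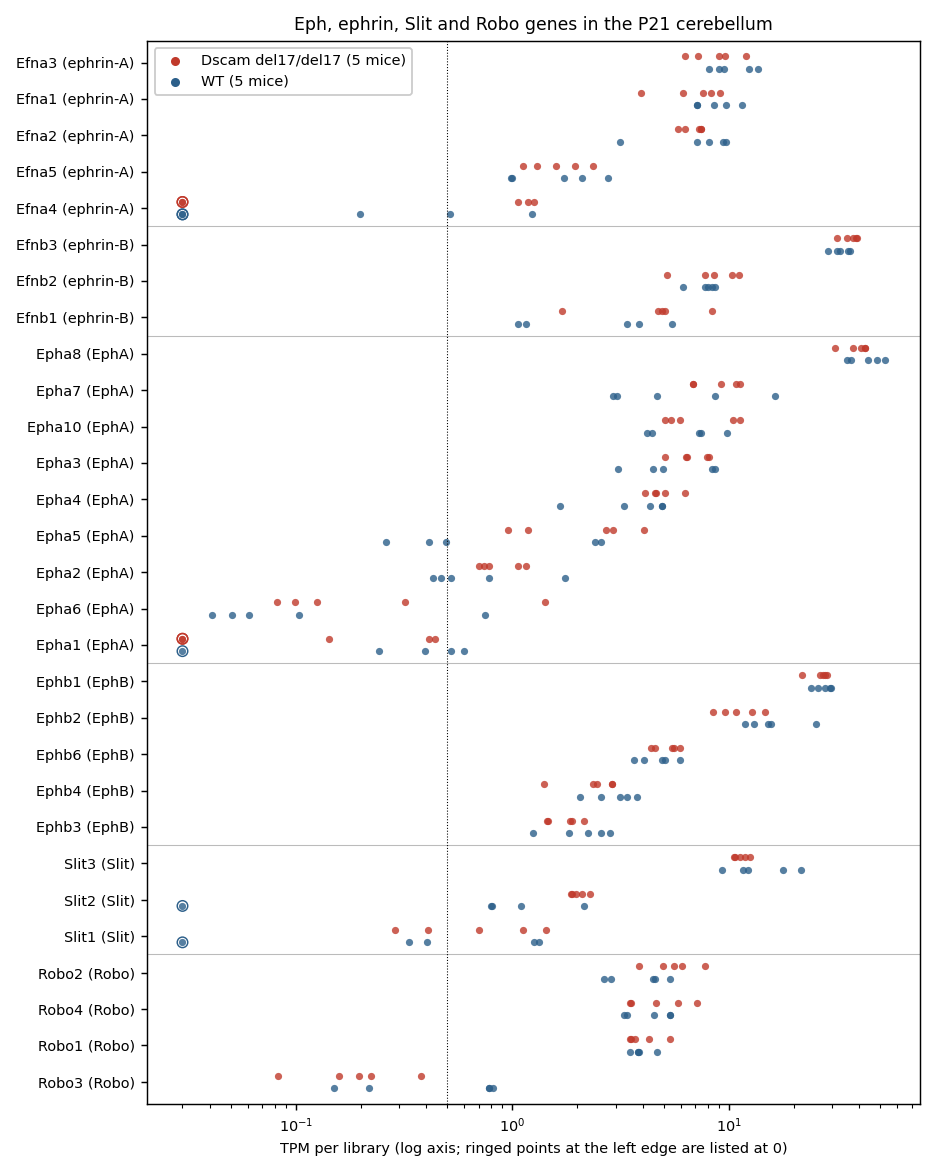
TPM of the 29 genes in each library on a log axis, with 5 Dscam del17/del17 mice (red, upper row of each gene) and 5 WT mice (blue, lower row). The dotted line marks 0.5 TPM, and ringed points at the left edge are listed at 0. Red and blue points overlap in each of the 26 genes tested, and Epha8, Efnb3 and Ephb1 lie farthest to the right.

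The levels spanned a wide range. *Epha8*, *Efnb3*, *Ephb1*, *Ephb2* and *Slit3* were the 5 members with a mean of at least 10 TPM over the 10 libraries. A further 18 had a mean between 1 and 10 TPM and 6 a mean under 1 TPM. The median of the tested members was 4.88 TPM, against 11.1 TPM for all genes tested. Summed over the 29 genes, the families held 222 ± 14.9 TPM (SD, n = 5 mice) in the mutant and 224 ± 11.7 TPM (SD, n = 5) in WT. EphA receptors made up 32.0% of this sum in the mutant and 30.9% in WT, EphB receptors 21.1% and 23.8%, and ephrin-B ligands 22.5% and 19.5%.

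Promoters from RefSeq (build GRCm38.p6) were found for 27 members, the exceptions being *Efnb3* and *Slit1*. The 100 bases before the start site are printed for *Epha8* and *Ephb1*, the most abundant receptors, and for *Ephb2*, *Epha5* and *Robo2*, which with *Slit2* (not printed) are the 4 members with the smallest p in limma. They are written 5′ to 3′ on the strand of the gene, and capitals mark each CG dinucleotide.
*Epha8*, chr4:136956817-136956916, minus strand: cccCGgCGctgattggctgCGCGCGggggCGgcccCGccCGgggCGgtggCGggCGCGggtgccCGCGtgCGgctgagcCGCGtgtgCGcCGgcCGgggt
*Ephb1*, chr9:102354694-102354793, minus strand: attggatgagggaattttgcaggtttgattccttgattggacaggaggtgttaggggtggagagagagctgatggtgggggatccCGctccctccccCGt
*Ephb2*, chr4:136836013-136836112, minus strand: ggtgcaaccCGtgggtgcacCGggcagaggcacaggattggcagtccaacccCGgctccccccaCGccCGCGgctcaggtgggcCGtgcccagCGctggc
*Epha5*, chr5:84417383-84417482, minus strand: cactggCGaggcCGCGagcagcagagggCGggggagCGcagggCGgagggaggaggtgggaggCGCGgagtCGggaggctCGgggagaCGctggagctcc
*Robo2*, chr16:74411826-74411925, minus strand: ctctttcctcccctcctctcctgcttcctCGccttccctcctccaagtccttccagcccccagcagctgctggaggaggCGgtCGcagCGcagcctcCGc

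In these windows *Epha8* had 20 CG dinucleotides and *Ephb1*, with the third highest mean level of the 29, had 2. Over the 250 bases before the start, counts ran from 2 in *Robo4* to 46 in *Epha8*. Of the 24 tested members with a promoter, 21 (87.5%) had at least 10 CG dinucleotides, as had 73.6% of 10472 tested protein-coding genes, with medians of 16.5 and 16. The letters GGGCGG, on either strand, were present in 16 of the 24 (66.7%, against 59.7%) and TATAAA, on either strand, in 2, *Efnb2* and *Slit2* (8.3%, against 6.1%). The RefSeq start used for *Robo1* lies 354843 bases from its start in GENCODE M21.

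Among the ephrin-A ligands, *Efna3*, *Efna1* and *Efna2* had similar levels and *Efna5* and *Efna4* lower ones. *Efna3*, whose product is carried by astrocytes in the mouse hippocampus and binds EphA4 on dendritic spines, had 7.22, 12.035, 9.57, 6.29 and 9.03 TPM in mutant replicates 1 to 5. It had 8.07, 9.03, 9.52, 12.3 and 13.6 TPM in WT replicates 1 to 5. WT replicates 4 and 5 were above all mutants and the other 3 WT libraries within the mutant range, with a log2 fold change of -0.26 (95% interval -0.76 to 0.24, adjusted p = 0.796 from limma). *Efna1*, a ligand also found on endothelial cells, had 6.14, 7.61, 8.23, 3.94 and 9.08 TPM in the mutant. In WT it had 9.69, 8.50, 7.09, 11.5 and 7.09 TPM, and its log2 fold change was -0.35 (95% interval -0.92 to 0.21, adjusted p = 0.784). Without mutant replicate 4 the value was -0.16 for *Efna1* and -0.15 for *Efna3*, and without WT replicate 5 it was -0.16 for *Efna3*. The *Efna1* and *Efna3* genes lie 32.8 kb apart on chromosome 3, with *Efna4* 10.4 kb beyond *Efna3*.

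*Efna2* and *Efna5* encode the ligands that order retinal axons in the mouse midbrain. *Efna2* had 5.81 to 7.47 TPM in the mutant and 3.13 to 9.69 TPM in WT, and *Efna5* 1.13 to 2.37 TPM in the mutant and 0.98 to 2.76 TPM in WT. The mutant values of both lay within the range of WT, with log2 fold changes of -0.03 for *Efna2* and 0.02 for *Efna5*. *Efna4* reached 0.5 TPM in 5 libraries and was listed at 0 in mutant replicates 3 and 4 and in WT replicates 2 and 5. Its other values were 1.06 to 1.26 TPM in the mutant and 0.20 to 1.23 TPM in WT.

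The ephrin-B ligands were dominated by *Efnb3*, a barrier ligand for corticospinal axons at the midline of the mouse spinal cord, which held 66.2% to 80.4% of the ephrin-B sum in the mutant and 70.5% to 79.7% in WT. *Efnb3* (chromosome 11, from 69554092 to 69560205) had 37.6, 38.9, 35.2, 31.5 and 38.8 TPM in mutant replicates 1 to 5. In WT it had 31.4, 32.6, 35.6, 36.4 and 28.5 TPM. Of the mutant values, 3 exceeded all of WT, and mutant replicates 3 and 4 lay within the WT range. A log2 fold change of 0.14 was found, with a narrow interval of -0.10 to 0.39 (adjusted p = 0.785). *Efnb2*, a ligand that marks arteries, had 10.4, 7.76, 8.52, 11.2 and 5.16 TPM in the mutant and 7.73, 8.35, 8.02, 6.13 and 8.66 TPM in WT (log2 fold change 0.10). *Efnb1*, which lies on the X chromosome, was the most variable of the 3, with 1.70 TPM in mutant replicate 2 and 4.73 to 8.35 TPM in the other mutants. In WT it had 1.06 and 1.15 TPM in replicates 3 and 5, and 3.37 to 5.44 TPM in the others. Its log2 fold change of 0.82 (95% interval -0.34 to 1.99, adjusted p = 0.779) was 0.10 without WT replicates 3 and 5.

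When the 3 ephrin-B genes were summed, the mutant libraries had 53.1, 48.3, 48.4, 47.5 and 52.3 TPM. The WT libraries had 44.6, 44.8, 44.7, 45.9 and 38.4 TPM, so that no WT value reached the lowest mutant value. This was the only one of the 6 family sums whose groups did not overlap, and it was singled out after the values were seen, so no test is given for it. The groups also did not overlap when the listed TPM were rescaled to an equal sum in each library, with at least 47.4 TPM in the mutant and at most 46.1 TPM in WT. They did overlap with median-of-ratios scaling, where the lowest mutant value was 47.7 TPM and the highest WT value 48.4 TPM. The 10 oligodendrocyte markers all had a log2 fold change above 0 (median 0.345). Of these, 3 (30.0%, against 5.55% of all genes tested) had an unadjusted p under 0.05 in limma. The groups did not overlap in 2, where 1.22% of all genes tested did not. Together the 10 summed to 7244 to 8495 TPM in the mutant and 5717 to 8309 TPM in WT. WT replicate 5 was lowest in both sums, and the part of these cells in the ephrin-B values was not tested.

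**Figure D2:**
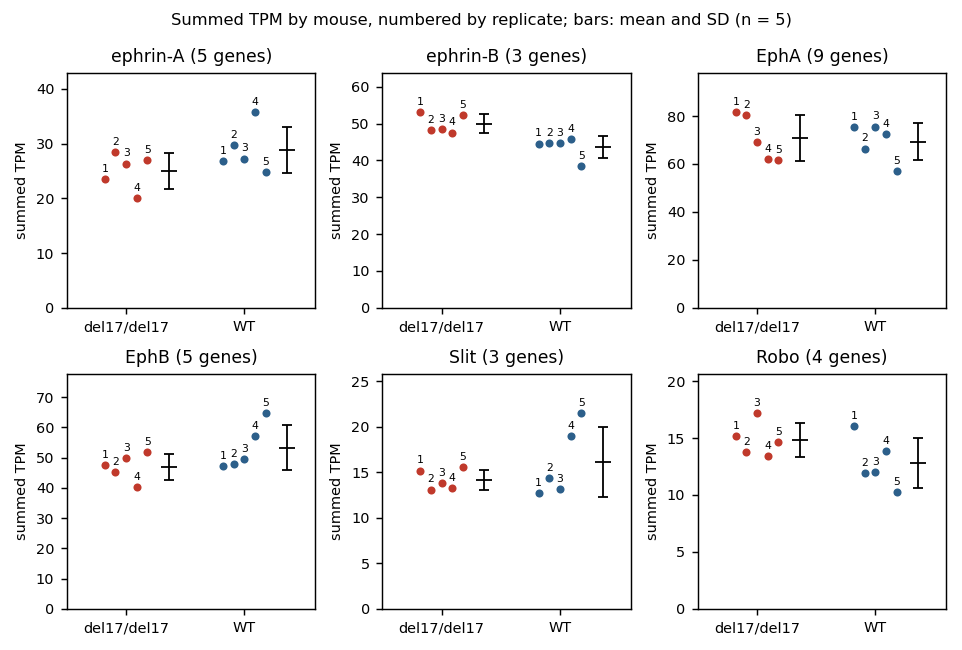
Summed TPM of each family by mouse, numbered by replicate, with Dscam del17/del17 left of WT in each panel; bars are the mean and SD of 5 mice. The ephrin-B points of the mutant (47.5 to 53.1 TPM) lie above those of WT (38.4 to 45.9 TPM), and the points of the other 5 families overlap.

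*Epha8* was the most abundant member and held 50.0% to 60.4% of the EphA sum in the mutant and 46.7% to 77.4% in WT. It encodes a receptor known for guiding axons that cross between the colliculi of the mouse midbrain. *Epha8* (chromosome 4, from 136929419 to 136956816) had 42.6, 42.6, 40.5, 31.1 and 37.2 TPM in mutant replicates 1 to 5. WT mice had 35.2, 36.7, 52.7, 48.2 and 44.0 TPM. WT replicates 3, 4 and 5 lay above all mutants, and WT replicates 1 and 2 within the mutant range. Its log2 fold change was -0.15 (95% interval -0.47 to 0.16, adjusted p = 0.813), and -0.074 without mutant replicate 4 or -0.077 without WT replicate 3.

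*Epha7*, whose product limits where axons and dendrites grow, came next among the EphA genes by mean level. It had 9.16, 10.8, 6.81, 11.2 and 6.83 TPM in the mutant and 16.4, 4.67, 8.59, 2.91 and 3.04 TPM in WT. WT replicate 1 was the highest of all 10 libraries and 3 other WT libraries lay below every mutant, so the log2 fold change of 0.62 had an interval from -0.34 to 1.58 (adjusted p = 0.779). For *Epha7* it became 0.99 without WT replicate 1, 0.38 without WT replicate 4, 0.40 without WT replicate 5 and 0.22 after adjusting for mitochondrial mRNA. *Epha10*, whose product lacks kinase activity, had 5.08 to 11.2 TPM in the mutant and 4.19 to 9.75 TPM in WT. *Epha4*, a receptor for ligands of both ephrin classes, had 4.11 to 6.26 TPM in the mutant and 1.66 to 4.93 TPM in WT, with the lowest value in WT replicate 5. Its log2 fold change was 0.44 (95% interval -0.26 to 1.15, adjusted p = 0.783), and 0.18 without WT replicate 5. *Epha2*, a receptor best known from epithelia, had 0.71 to 1.16 TPM in the mutant and 0.43 to 1.75 TPM in WT.

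*Epha5*, a receptor for ephrin-A ligands on retinal and cortical axons, had 4.06, 2.69, 2.93, 0.96 and 1.19 TPM in mutant replicates 1 to 5. In WT it had 2.57 and 2.42 TPM in replicates 1 and 2, and 0.41, 0.50 and 0.26 TPM in replicates 3, 4 and 5. Each genotype thus held libraries with a high and with a low level, and 3 WT libraries lay below every mutant. Its log2 fold change was 1.201 (95% interval -0.26 to 2.67, adjusted p = 0.779 from limma), the second highest of the members. Leaving out WT replicate 5 gave 0.86, leaving out WT replicates 3 and 5 gave 0.45, and adjusting for mitochondrial mRNA gave 0.37. *Epha6* had 1.41 TPM in mutant replicate 1 and 0.75 TPM in WT replicate 2, and between 0.041 and 0.32 TPM in the other 8 libraries. *Epha1* was at most 0.44 TPM in the mutant and at most 0.60 TPM in WT, and was listed at 0 in 3 libraries.

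*Ephb1*, which sends retinal axons to the same side of the mouse brain, was among the steadiest members. It had 28.4, 27.3, 27.7, 21.7 and 26.4 TPM in the mutant and 25.8, 27.6, 23.9, 29.4 and 29.7 TPM in WT. Its log2 fold change was -0.055 (95% interval -0.32 to 0.21), one of the narrowest among the members. Of 9 annotated genes that overlap *Ephb1*, 6 lie on the opposite strand. The library kit marks strand, but the strand setting of the quantification is not given in the sources used here.

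*Ephb2* encodes a receptor that binds and clusters NMDA receptors at excitatory synapses. *Ephb2* (chromosome 4, from 136647539 to 136835988) had 9.62, 8.42, 12.7, 10.8 and 14.6 TPM in mutant replicates 1 to 5, and 13.0, 11.8, 15.1, 15.7 and 25.3 TPM in WT replicates 1 to 5. Mutant replicates 1, 2 and 4 lay below all WT libraries, and WT replicate 5 stood far above the rest. The log2 fold change was -0.50 (95% interval -1.002 to 0.008, adjusted p = 0.779 from limma), the lowest of the members. The exact two-sided permutation test gave p = 0.0635 (adjusted p = 0.802 over all genes tested). The log2 fold change became -0.32 when WT replicate 5 was left out and -0.21 after adjusting for mitochondrial mRNA. The neighbouring *Epha8* gene, 93.4 kb away on the same strand, also had its lowest values in WT replicates 1 and 2 among WT.

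The other EphB genes were lower in level. *Ephb6*, whose product lacks kinase activity, had 4.39 to 5.96 TPM in the mutant and 3.66 to 5.95 TPM in WT. *Ephb4*, the receptor for ephrin-B2 on veins, had 1.40 to 2.89 TPM in the mutant and 2.05 to 3.75 TPM in WT (log2 fold change -0.31, 95% interval -0.99 to 0.37). *Ephb3*, a receptor that also guides commissural axons of the mouse forebrain, had 1.445, 2.15, 1.47, 1.88 and 1.84 TPM in mutant replicates 1 to 5 and 1.25, 1.82, 2.56, 2.815 and 2.23 TPM in WT replicates 1 to 5, with 3 WT libraries above all mutants. Of the 5 EphB genes 4 had a log2 fold change below 0 and 1 above, whereas 6 of the 7 tested EphA genes had one above 0 and 1 below. None of these 12 intervals excluded 0, the signs of *Epha3*, *Epha10* and *Ephb1* turned when libraries were left out or mitochondrial mRNA was adjusted for, and the difference between the receptor families was not tested.

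**Figure D3:**
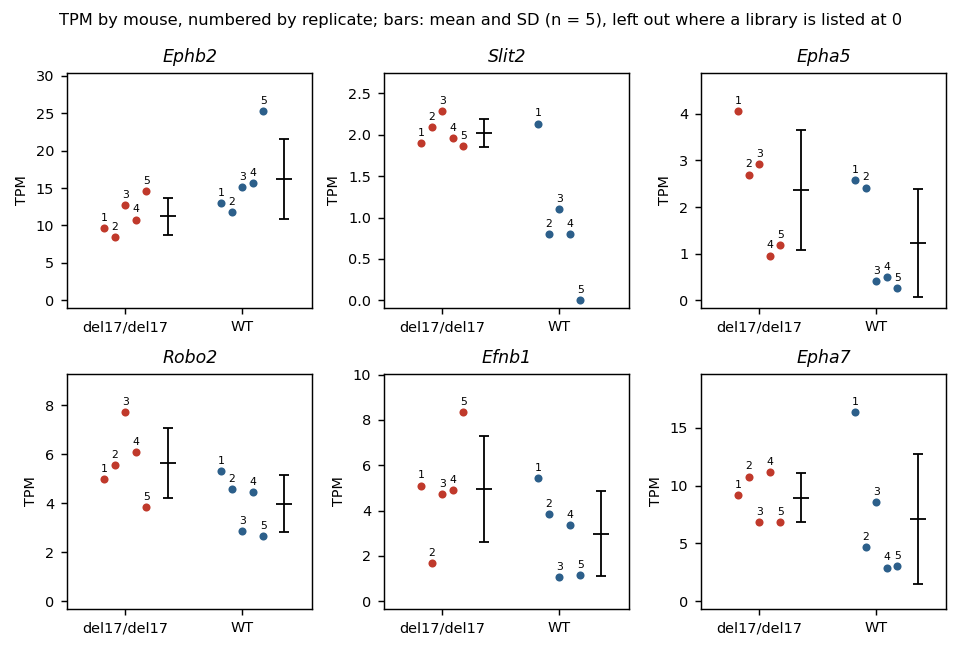
TPM by mouse, numbered by replicate, of the 6 members with the smallest p in limma, with Dscam del17/del17 at the left and WT at the right of each panel; bars give the mean and SD, left out for Slit2 in WT. WT replicate 5 has 25.3 TPM of Ephb2 and is listed at 0 for Slit2, and WT replicates 3 to 5 have at most 0.50 TPM of Epha5.

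*Slit3* was the main Slit gene of the tissue and held 78.1% to 81.3% of the Slit sum in the mutant and 72.8% or more in WT. *Slit3* (chromosome 11, from 35121224 to 35708507) had 11.9, 10.6, 11.2, 10.6 and 12.6 TPM in mutant replicates 1 to 5. WT mice had 9.26, 12.3, 11.6, 17.8 and 21.5 TPM. The mutant values were close together and lay within the WT range, whose upper end is WT replicates 4 and 5. The log2 fold change was -0.29 (95% interval -0.78 to 0.20, adjusted p = 0.785), with -0.13 if WT replicate 5 and -0.43 if WT replicate 1 was left out. The 10 meningeal fibroblast markers summed to 1098 to 1852 TPM in the mutant. In WT they summed to 2590 and 2140 TPM in replicates 4 and 5 and to 1373 to 1773 TPM in the others, and their part in the *Slit3* values was not tested.

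*Slit2*, the ligand with a known role in Purkinje cell dendrites, had 1.90, 2.10, 2.29, 1.96 and 1.86 TPM in mutant replicates 1 to 5. In WT replicates 1 to 4 it had 2.14, 0.80, 1.10 and 0.80 TPM, and in WT replicate 5 it was listed at 0. Of 6255 genes with a median of at least 20 TPM, 5 are also listed at 0 in some library, and 3 in WT replicate 5. Among the 5888 protein-coding ones, 1 is listed at 0 in some library. These genes are far above the level of *Slit2*, and whether its 0 means that no RNA was present was not tested. The mutant libraries were alike and lay above 4 of the 5 WT libraries, while WT replicate 1 was within their range. The log2 fold change was 1.52 (95% interval -0.03 to 3.07, adjusted p = 0.779 from limma), the highest of the members, and 0.80 without WT replicate 5. Because of the 0 it depends on the value added, and was 2.22 with 0.01 TPM and 0.71 with 1 TPM. Adjusting for mitochondrial mRNA gave 0.51. The exact two-sided permutation test gave p = 0.0397 (adjusted p = 0.758 over all genes tested). *Slit2* (chromosome 5, from 47983138 to 48307733) has the longest exonic sequence of the members, 25433 bp over 23 annotated transcripts, and 7 annotated genes overlap it. *Slit1*, which is largely restricted to the nervous system, had 1.43, 0.41, 0.29, 0.70 and 1.12 TPM in the mutant. It had 1.33, 1.27, 0.40 and 0.34 TPM in WT replicates 1 to 4 and was listed at 0 in WT replicate 5.

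Of the Robo receptors, *Robo2*, *Robo4* and *Robo1* had mean levels of 4.81, 4.64 and 3.997 TPM over the 10 libraries, which do not differ beyond the spread between libraries. *Robo2*, the partner of *Slit2* in Purkinje cells, had 4.97, 5.56, 7.72, 6.09 and 3.85 TPM in mutant replicates 1 to 5 and 5.32, 4.58, 2.87, 4.46 and 2.66 TPM in WT replicates 1 to 5. Mutant replicates 2, 3 and 4 lay above all WT libraries. The log2 fold change was 0.51 (95% interval -0.12 to 1.13, adjusted p = 0.779). It was 0.38 when WT replicate 5 was left out and 0.20 when both WT replicates 3 and 5 were. For Purkinje cells, 11 of 12 listed markers were tested. On the log2 scale the mutant was higher in 10 and lower in 1 (median 0.235, against 0.048 for all genes tested). Of these, 0 reached an unadjusted p under 0.05 in limma. The 12 markers summed to 4522 to 5308 TPM in the mutant and to 4387 to 5145 TPM in WT. Their part in the *Slit2* and *Robo2* values was not tested. *Robo1*, which acts with *Robo2* on many axons, had 5.35, 4.29, 3.52, 3.67 and 3.51 TPM in the mutant and 4.65, 3.79, 3.82, 3.84 and 3.51 TPM in WT (log2 fold change 0.04, 95% interval -0.47 to 0.55). *Robo3*, which regulates midline crossing of hindbrain axons, was below 0.5 TPM in all mutants, with 0.083 to 0.38 TPM. In WT it had 0.78, 0.82 and 0.78 TPM in replicates 1, 3 and 5, and 0.15 and 0.22 TPM in replicates 2 and 4.

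*Robo4* is the Robo of endothelial cells and lies 0.6 kb from *Robo3*, on the opposite strand. It had 4.62, 3.53, 5.85, 3.50 and 7.12 TPM in the mutant and 5.33, 3.39, 4.49, 5.32 and 3.27 TPM in WT (log2 fold change 0.15, 95% interval -0.47 to 0.77). Leaving out 1 library gave 0.003 (mutant replicate 5) to 0.25 (mutant replicate 4). The 12 endothelial markers summed to 246 to 296 TPM in the mutant and to 233 to 296 TPM in WT. Of their log2 fold changes 5 were above 0 and 7 below, and 1 in each direction had an unadjusted p under 0.05. That is 16.7% of the list, against 5.55% of all genes tested. The 10 pericyte and smooth muscle markers summed to 117 to 157 TPM in the mutant and to 159 to 185 TPM in WT, ranges that do not overlap. Of their 10 log2 fold changes 9 were below 0, and 4 (40.0%) had an unadjusted p under 0.05. The groups did not overlap in 3 of these markers, where 1.22% of all genes tested did not. The 5 blood markers, all with a log2 fold change above 0 (median 0.645), summed to 1536 to 2698 TPM in the mutant. In WT they summed to 1065 to 1795 TPM, and 4 of the 5 (80.0%) had an unadjusted p under 0.05. Of 19 brainstem and midbrain markers, 7 were tested, with 5 log2 fold changes above 0 and 2 below (median 0.82). Among these, 3 were higher and 1 lower at an unadjusted p under 0.05 (57.1%). The part of all these markers in the levels of *Robo4*, *Efnb2*, *Ephb4* and the other members was not tested. In whole tissue, fewer cells of a type and less RNA per cell cannot be told apart.

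The 5 members on chromosome 16, the chromosome of *Dscam* (96590840 to 97170752), lie 22.2 to 75.4 Mb from it on the same side. *Robo2* and *Robo1* are the nearest, at 22.2 and 23.5 Mb, followed by *Epha3* at 32.7 Mb, *Epha6* at 36 Mb and *Ephb3* at 75.4 Mb. *Epha3*, a receptor that orders retinal axons in the chick, had 6.36, 6.42, 7.90, 8.08 and 5.09 TPM in the mutant and 8.32, 8.64, 4.99, 4.45 and 3.06 TPM in WT. WT replicates 1 and 2 were above all mutants and the other WT libraries below all of them, with a log2 fold change of 0.28 (95% interval -0.38 to 0.95). No direction was shared by the 4 tested genes of this chromosome, since *Ephb3* had a log2 fold change of -0.23 (95% interval -0.95 to 0.48), and the intervals of *Robo1*, *Robo2* and *Epha3* included 0.

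**Figure D4:**
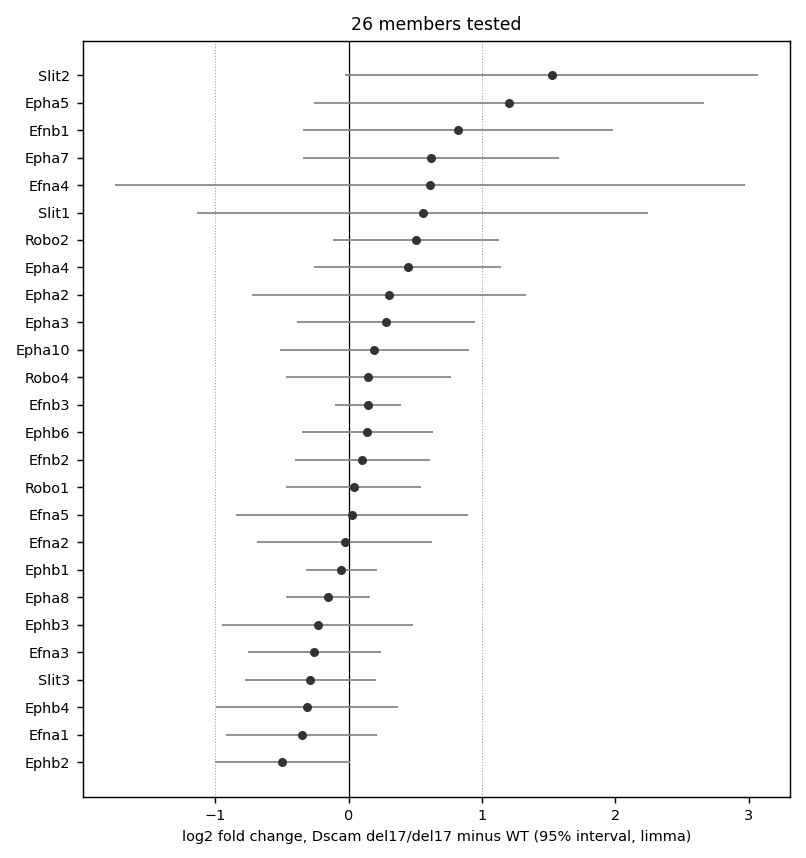
Log2 fold change (Dscam del17/del17 minus WT, points) with 95% intervals from limma of the 26 members tested; dotted lines mark -1 and 1. Each interval includes 0, from Ephb2 at -0.50 to Slit2 at 1.52, and 16 intervals lie between -1 and 1.

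The width of the intervals sets what could have been seen. In 16 of the 26 members the 95% interval lay between -1 and 1, as in 56.1% of all genes tested, so that a 2-fold difference lay outside it. In the other 10, among them *Slit1*, *Slit2*, *Epha5*, *Efnb1* and *Efna4*, a 2-fold difference in at least 1 direction lay within it. The log2 values of 17 members (65.4%) were more variable in WT than in the mutant, as were those of 68.9% of all genes tested. WT replicate 5 had the lowest value of the 10 libraries in 11 of 26 members (42.3%, against 38.8% of all genes tested) and the highest in 5 (19.2%, against 11.8%). Leaving out a single library moved the log2 fold change by over 1.5 times, or turned its sign, in 24 of the 26 members, the exceptions being *Epha5* and *Robo2*, and WT replicate 5 was such a library in 18. This ratio is easily passed by a value near 0, as in *Efna2* (-0.03) and *Efna5* (0.02), each moved by 9 libraries. The share over all genes tested was not computed, so the count does not set these members apart.

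Of 36 listed genes that act downstream of Eph receptors and ephrins, 34 were tested and 0 were called by limma. In this list 4 (11.8%, against the 5.55% of all genes) had an unadjusted p under 0.05, 3 lower and 1 higher in the mutant, and the median log2 fold change was 0.084. *Chn2*, which encodes a Rac-inactivating chimaerin and is also a granule cell marker, had 314, 354, 292, 279 and 287 TPM in mutant replicates 1 to 5 and 419, 340, 388, 406 and 373 TPM in WT. Only mutant replicate 2 reached the WT range, and the log2 fold change was -0.34 (95% interval -0.54 to -0.14, adjusted p = 0.779). *Tiam1*, a Rac activator that ephrin-B and EphA receptors recruit, had 66.0 to 85.8 TPM in the mutant and 81.1 to 109 TPM in WT (log2 fold change -0.35, adjusted p = 0.779). *Chn1*, the chimaerin that acts behind EphA4, had 36.1 to 47.0 TPM in the mutant and 21.2 to 37.1 TPM in WT (log2 fold change 0.36, adjusted p = 0.779). *Pick1*, a PDZ protein that binds ephrin-B and Eph receptors, had 29.7 to 39.6 TPM in the mutant and 33.9 to 50.4 TPM in WT, with a log2 fold change of -0.33. Of the 12 granule cell markers, *Chn2* among them, 10 had a log2 fold change below 0. In 5 of these (41.7% of the list, against 5.55% of all genes tested) the unadjusted p was under 0.05. The groups did not overlap in 2, where 1.22% of all genes tested did not. They summed to 3534 to 3949 TPM in the mutant and to 3720 to 4492 TPM in WT, and their part in the *Chn2* and *Tiam1* values was not tested.

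Of 28 listed genes that act with Slit and Robo, 27 were tested, 0 were called by limma and 0 had an unadjusted p under 0.05 (5.55% of all genes). Their median log2 fold change was 0.078, with 19 values above 0 and 8 below. *Rhoa*, a GTPase that Robo signalling regulates, had 124 to 149 TPM in the mutant and 76.1 to 133 TPM in WT. Its log2 fold change was 0.33 (95% interval -0.02 to 0.67, adjusted p = 0.779), and its lowest values were those of WT replicates 3 and 5. *Cdc42*, the GTPase that Slit signalling inactivates through srGAP proteins, had 209 to 301 TPM in the mutant and 119 to 335 TPM in WT (log2 fold change 0.19). *Enah*, an actin regulator that binds Robo, had 8.44 to 21.8 TPM in the mutant and 7.16 to 18.1 TPM in WT. Lower in the mutant were *Myo9b*, with 28.2 to 33.5 TPM against 30.1 to 34.9 TPM in WT (log2 fold change -0.17), and *Ndn*. *Ndn* had 99.9 to 109 TPM in the mutant and 102 to 117 TPM in WT (log2 fold change -0.11). The abundant kinase gene *Pak1*, which acts behind both Robo and DSCAM, had 183 to 222 TPM in the mutant and 164 to 261 TPM in WT (log2 fold change 0.07).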

How the data were processed

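Libraries were made with a directional kit. Reads were trimmed (Trimmomatic) and aligned to GRCm38 (HISAT2) by the authors, and the deposited TPM of each Ensembl gene come from StringTie. Read numbers cannot be recovered from TPM. The depth is therefore unknown and no counting error is given. The annotation release and the strand setting are not given in the sources used here. GENCODE M21 gave symbols and positions and lacked 105 of 53447 identifiers. Genes with at least 0.5 TPM in at least 5 of 10 libraries entered limma 3.58.1 (R 4.3.3) as log2(TPM + 0.1), without covariates and with a variance trend, with Benjamini-Hochberg adjustment over all 17168 genes, a threshold of 0.05 and 95% intervals. The members and gene lists were chosen with earlier results of these data known. Values per library are given for the 2 highest members of each family, for those with an unadjusted p under 0.05 or no overlap and for tested members on chromosome 16; some other members were given in full after their values were seen. From each downstream list, the genes named were among the 4 of smallest p or the 2 of highest mean. There were 24 alternatives, among them the replicate number as a block, other scalings, filters and added values, covariates and leaving out libraries; rescaled ephrin-B sums were added after seeing the data. The read counts and the DESeq2 comparison that the methods name were not analysed here.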

Additional observations from a re-analysis of the deposited data

Results flagged for a closer look

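Among 72 groups of 5 libraries (29 genes and 7 sums in each genotype), 7 held a library far from the other 4, where chance gives about 3.6, or 1 in 20. In the mutant, replicate 1 had 1.414 TPM of *Epha6*, against 0.318 TPM in the next library. In WT, replicate 2 had 0.7455 TPM of *Epha6*, against 0.1037 TPM in the next library. WT replicate 4 had 1.747 TPM of *Epha2*, against 0.7809 TPM in the next library, and a sum over all 29 genes of 244.2 TPM, against 222.8 TPM. WT replicate 1 had 4.651 TPM of *Robo1*, against 3.838 TPM. WT replicate 5 had 25.3 TPM of *Ephb2*, against 15.7 TPM, and the lowest ephrin-B sum, 38.35 TPM, against 44.58 TPM in the next WT library.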

How the results depend on the processing

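None of the members was called under any of the 24 alternatives, and the lowest adjusted p from limma was 0.523. Over all genes, 4 were called without the variance trend, and leaving out 1 library gave 0 to 1, the 1 being without mutant replicate 4. Log2 fold changes kept their sign in 17 members and took either sign in 9. Without WT replicates 3 and 5 the value was -0.021 for *Robo1*, -0.276 for *Slit1*, -0.164 for *Epha10*, -0.059 for *Efna5* and -0.036 for *Epha3*. Adjusted for mitochondrial mRNA as a covariate it was -0.050, -0.476, -0.084, -0.224 and -0.144 for the same genes. Quantile normalization gave -0.060 for *Robo1* and -0.106 for *Efna5*, median-of-ratios scaling -0.010 for *Efna5*, and array weights -0.063 for *Efna4*. Leaving out 1 library gave -0.062 to 0.10 for *Robo1*, -0.31 to 0.087 for *Efna2*, -0.137 to 0.21 for *Efna5*, -0.0019 to 0.27 for *Efnb2*, -0.10 to 0.013 for *Ephb1* and -0.048 to 0.91 for *Slit1*. The cause was not tested. The sources used here do not say whether same-numbered libraries were paired. Such libraries correlated at 0.008 to 0.098 in their deviations from the genotype means, which cannot settle it. The best match of mutant replicate 5 was WT replicate 5 (0.098), and that of the other mutants was WT replicate 2. With the replicate block 0 members were called, and their median log2 fold change was 0.142, which a balanced block cannot move. Over the other settings this median turned below 0 after adjusting for mitochondrial mRNA (-0.025) or leaving out WT replicates 3 and 5 (-0.028), and was 0.018 with array weights. Filtering at a mean of 5 TPM gave -0.042, over the 12 members that passed. The unknown depth limits what can be said of members under 1 TPM.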
